A study of Mus musculus with 24 samples.

Results

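Transcripts of the Notch receptors Notch1 to Notch4, of the ligands Jag1, Jag2, Dll1 and Dll4 and of the target genes Hes1 and Hey1 were followed in D2.1 and D2A1 mammary tumor cells, in culture and as tumors. These 10 genes were chosen by symbol, through the Ensembl identifiers of the count tables, from 34519 identifiers that the tables of cultured cells and of tumors share (35275 and 54532 in each). All 10 were listed in both tables, and all 10 passed edgeR's filter on low counts in each of the 9 comparisons.

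Notch receptors are cell-surface proteins that are activated by ligands of the Jagged and Delta-like families on neighboring cells. Binding leads to cleavage of the receptor by ADAM proteases and γ-secretase, and the freed intracellular domain enters the nucleus, where it joins RBPJ and Mastermind-like proteins and turns on genes such as Hes1 and Hey1. In the mammary gland the pathway takes part in the fate of progenitor and luminal cells, in vessels Dll4, Notch1 and Notch4 act in endothelium, and Notch3 marks mural cells. Notch4 was first found as Int3, a site where the mouse mammary tumor virus inserts in mammary tumors. Whether these lines carry an insertion there was not tested.

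D2A1 and D2.1 are lines from D2 hyperplastic alveolar nodules of BALB/c mice, of which D2A1 grows rapidly and D2.1 is studied as a dormancy-competent line. Libraries were made from 3 cultures of each line. Tumor libraries came from 4 tumors of each line in female BALB/c mice and from 5 of each line in female SCID-beige mice. SCID-beige mice carry the Prkdc scid and Lyst bg alleles, lack functional T and B cells and have defective NK cells. Tumors grew in the mammary fat pad (MFP) after implantation of 1000000 cells and were taken at about 500 mm3. They were taken by size and not at a set time, and the labels give no time. Line and time in the host therefore cannot be told apart in tumors. The host mice were young adults by the study's methods. No transgene or treatment is named for these groups, each line is a single cultured line, and each tumor library is whole tissue with host cells.

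Between 16837260 and 24818234 reads were counted on genes per culture and between 13566949 and 18355153 per tumor. By these totals, 3 counts correspond to 0.121 to 0.178 CPM (counts normalized to library size) in cultures and 0.163 to 0.221 in tumors. Levels in CPM below are also scaled by TMM factors, so 3 counts correspond to slightly different values there. These floors cover counting error only. Cultures and tumors were deposited as separate tables, so the table and the setting cannot be told apart. In the tumors labelled D2.1 BALB/c, replicate 1 held 385 CPM of 5 milk protein markers and replicate 4 held 121 CPM of 5 skin markers. Markers of T cells summed to between 103 and 254 CPM over 8 genes in D2.1 BALB/c tumors and to between 17.5 and 44.2 CPM in D2.1 SCID-beige tumors, and D2A1 tumors held 10.4 to 30.1 and 2.76 to 7.07 CPM in these hosts. The cultures are labelled as mammary tumor cells. D2.1 cultures held 2495 to 4891 CPM of 7 epithelial markers and 1878 to 2768 CPM of 6 fibroblast markers. D2A1 cultures held 143 to 361 and 83.6 to 104 CPM of these. Of the 6 fibroblast markers, 3 had at most 3 reads in each D2.1 culture and 4 in each D2A1 culture.

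The members lie on 5 chromosomes. In GRCm38, Notch4 spans chr17:34564268-34588503 on the plus strand, Notch3 chr17:32120820-32166852 and Dll1 chr17:15367354-15376872 on the minus strand. Notch1 spans chr2:26457903-26516663 and Jag1 chr2:137081456-137116644 on the minus strand, and Dll4 spans chr2:119325784-119335962 on the plus strand. Notch2 lies at chr3:98013527-98150361 (plus) and Hey1 at chr3:8663359-8667256 (minus), Jag2 at chr12:112907819-112929776 (minus) and Hes1 at chr16:30064384-30067796 (plus). Genes annotated on the opposite strand overlap exons of Notch1 (0610009E02Rik, 1068 bases, and Gm13568), Notch3 (Gm17276, 488 bases), Dll1 (A930024N18Rik, 867 bases) and Dll4 (Gm14207), and Gm42820 overlaps 541 exon bases of Notch2 on the same strand. The strand setting of the counting is not given in the sources used here, so reads of these pairs may be shared.

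Promoter windows in RefSeq (GRCm38.p6, 250 bases before to 50 after each start) were found for 8 of the 10 members, not Hes1 or Hey1. They are shown for Notch4, the receptor that differed most evenly between the lines, for Notch1, and for Dll4, whose line difference turned with the setting. Capitals mark GC boxes (GGGCGG on either strand) in Notch1 and Dll4, and an AP-1 motif (TGANTCA on either strand) in Notch4.
Notch4, chr17:34564045-34564344, plus strand: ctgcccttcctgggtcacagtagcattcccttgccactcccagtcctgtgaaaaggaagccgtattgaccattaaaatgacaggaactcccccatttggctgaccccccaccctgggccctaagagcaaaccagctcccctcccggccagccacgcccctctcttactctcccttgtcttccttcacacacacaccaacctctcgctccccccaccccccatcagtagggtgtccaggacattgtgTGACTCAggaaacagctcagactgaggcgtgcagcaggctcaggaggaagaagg
Notch1, chr2:26503773-26504072, minus strand: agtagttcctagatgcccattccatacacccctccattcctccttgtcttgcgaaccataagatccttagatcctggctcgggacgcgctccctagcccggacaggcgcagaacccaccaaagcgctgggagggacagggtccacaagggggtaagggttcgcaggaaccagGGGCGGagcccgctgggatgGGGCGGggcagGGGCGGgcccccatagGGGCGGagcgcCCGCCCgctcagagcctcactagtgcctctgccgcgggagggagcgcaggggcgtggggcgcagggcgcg
Dll4, chr2:119325534-119325833, plus strand: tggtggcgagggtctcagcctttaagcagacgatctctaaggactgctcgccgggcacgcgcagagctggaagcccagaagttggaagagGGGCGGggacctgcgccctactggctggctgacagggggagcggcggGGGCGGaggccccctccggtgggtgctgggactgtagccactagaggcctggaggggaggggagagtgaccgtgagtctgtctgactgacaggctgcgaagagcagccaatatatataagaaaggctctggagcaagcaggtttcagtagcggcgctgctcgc

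The Notch4 window held 1 AP-1 motif, beginning 4 bases before the start, and 0 GC boxes. The Notch1 window, which lies inside the longer GENCODE gene, held 5 GC boxes and the Dll4 window 2. Among all 32851 RefSeq windows of this length, 35.7% held a GC box, 7.81% an AP-1 motif and 25.6% the RBPJ core TGGGAA. The RBPJ letters were found in 0 of the 8 members' windows. The targets Hes1 and Hey1 had no window and were not searched. A match describes letters in this window and shows no binding.

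Levels of the members were first compared within each group, as TMM-normalized CPM per kilobase with 1 set of gene lengths. In D2.1 cells and tumors Notch4 was the most abundant member, with 80.6 ± 8.71 CPM per kb in culture (SD, n = 3), 84.2 ± 21.1 in BALB/c tumors (n = 4) and 98.7 ± 14.8 in SCID-beige tumors (n = 5). In tumors it was above the next member in every library, whereas in culture it overlapped with Hes1 (65.9 ± 9.35 CPM per kb). In D2A1 groups Hes1 was the most abundant, with 21.5 ± 0.897, 43.6 ± 4.70 and 48.9 ± 4.91 CPM per kb, above Notch2, the next member, in every library.

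Below these leaders, neighbors in the order mostly overlapped. In D2.1 BALB/c tumors the order was Notch4, Hey1, Hes1, Notch2, Jag1, Notch1, Notch3, Jag2, Dll4 and Dll1 by level per kb, with clear steps in every library after Notch4, Hes1, Notch1 and Notch3. In D2A1 BALB/c tumors the order was Hes1, Notch2, Jag1, Notch4, Dll4, Jag2, Notch3, Hey1, Notch1 and Dll1, with clear steps after Hes1 and Notch1 alone. Hey1 stood at rank 2 or 3 in the D2.1 groups (rank 4 in BALB/c tumors with the deposited lengths), at rank 3 in D2A1 culture and at rank 8 in D2A1 tumors. With the deposited lengths Notch1 moved from rank 6 to 3 in D2.1 BALB/c tumors and from 9 to 5 in D2A1 BALB/c tumors. Other members moved in tumors too.

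Receptor transcripts consisted mainly of Notch4 in D2.1, and Notch2 had the highest mean share in D2A1. The cell and tumor tables imply different gene lengths and may rest on different annotations, so tumor shares depend on the lengths used. Per length of the cell table, Notch4 made up 71.3% ± 5.01 of the 4 receptors in D2.1 culture (SD, n = 3), 69.9% ± 13.9 in D2.1 BALB/c tumors (n = 4) and 73.1% ± 9.60 in D2.1 SCID-beige tumors (n = 5). In D2A1 it made up 21.7% ± 8.18, 20.4% ± 4.44 and 19.1% ± 2.90 in the same settings, with no overlap between the lines. Notch2 took 74.7% ± 8.41, 60.3% ± 4.58 and 57.5% ± 4.41 in D2A1 and between 8.84% and 25.2% in any D2.1 library. With the lengths behind the deposited FPKM of the tumor table, Notch4 made up 75.9% ± 12.8 and 78.8% ± 8.72 in D2.1 tumors of BALB/c and SCID-beige hosts and 34.3% ± 6.29 and 34.0% ± 4.75 in D2A1 tumors. Notch2 then took 40.7% ± 4.79 and 40.9% ± 3.33 in D2A1 tumors, below Notch4 in BALB/c replicate 4 and SCID-beige replicate 2. Among the ligands Jag1 led in every group by the cell-table lengths, from 53.2% ± 13.9 in D2A1 BALB/c tumors to 85.7% ± 1.76 in D2.1 culture. The summed level of receptors over that of ligands was 7.80 ± 0.890 in D2.1 culture and 6.82 ± 3.19 and 7.07 ± 1.46 in D2.1 tumors of the BALB/c and SCID-beige hosts. In D2A1 it was 3.49 ± 0.166 in culture and 1.35 ± 0.151 and 1.13 ± 0.148 in tumors. With the deposited lengths it was 14.0 ± 6.62 and 15.1 ± 3.10 in D2.1 tumors and 1.67 ± 0.278 and 1.37 ± 0.235 in D2A1 tumors.

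**Figure D1:**
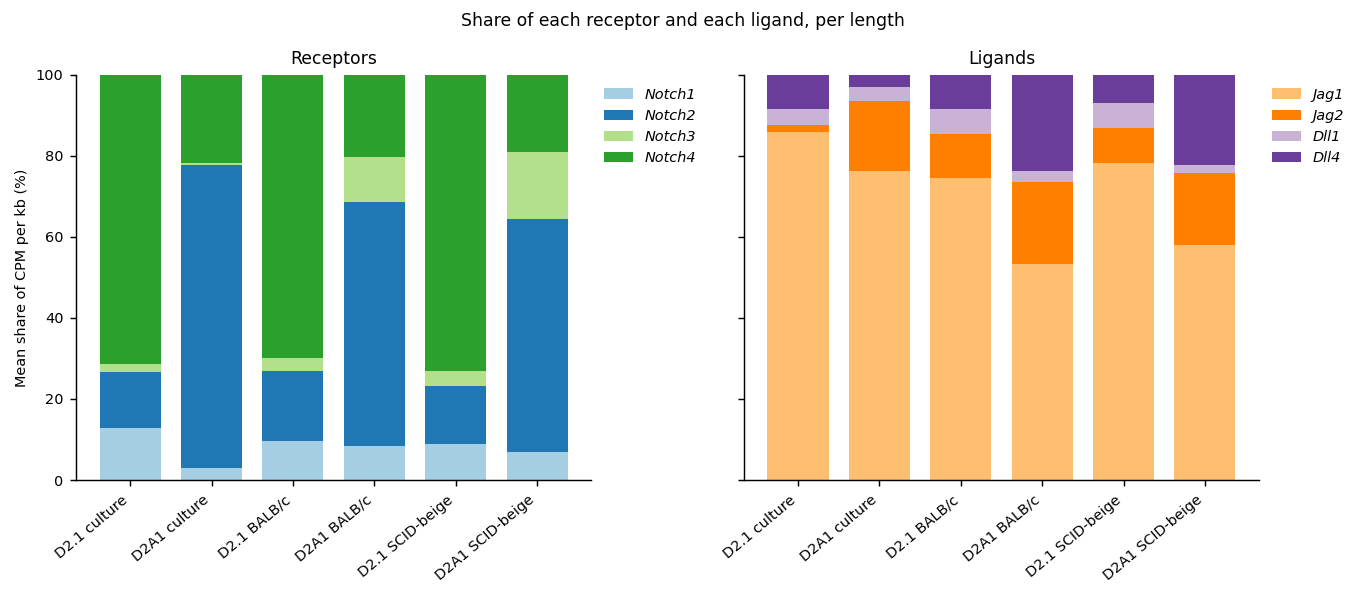
Stacked bars give the mean share (%) of each receptor (left) and each ligand (right) in the summed CPM per kb of its class, for the 6 groups (3, 4 or 5 libraries). Notch4 takes 69.9% to 73.1% of receptor transcripts in D2.1 groups and 19.1% to 21.7% in D2A1 groups with the gene lengths of the cell table, and Dll4 takes 23.7% and 22.4% of ligand transcripts in D2A1 tumors.

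The comparison of D2.1 with D2A1 asks which members differ between a dormancy-competent and a proliferative line, first without and then with host tissue. In culture 9 members were higher and 1 (Jag2) lower in D2.1, where 44.9% of 12489 genes tested were called by edgeR's quasi-likelihood test at a Benjamini-Hochberg adjusted p under 0.05 (24.2% higher and 20.7% lower). Notch1 is among the genes the study displays from these cultures, so its direction is not independent evidence. In BALB/c tumors 4 members were higher, 2 lower and 4 not called (background 32.6% of 14953 genes, 16.8% higher and 15.8% lower). In SCID-beige tumors 3 were higher, 2 lower and 5 not called (background 32.1% of 14355 genes, 17.2% higher and 14.8% lower). The median log2 difference over the 10 members was 2.41 in culture, 0.29 in BALB/c and 0.12 in SCID-beige, beside medians over all genes of -0.02, -0.02 and 0.02.

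**Figure D2:**
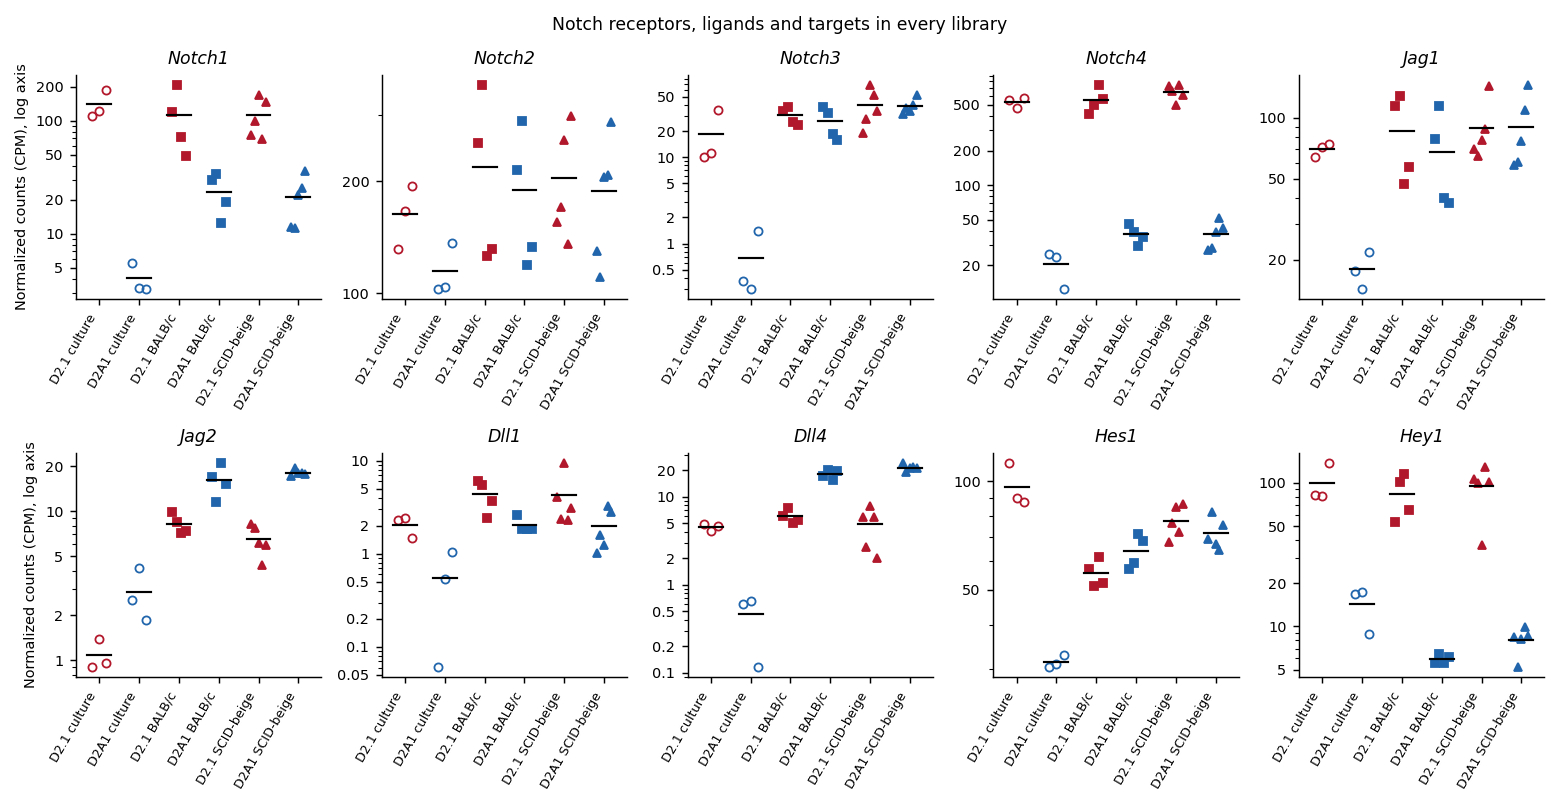
Each panel shows 1 gene, with the normalized counts (CPM, log axis) of every library as points and the mean of each group as a bar. D2.1 is red and D2A1 blue, with open circles for cultures, squares for BALB/c tumors and triangles for SCID-beige tumors. Notch4 and Hey1 are separate between the lines in all 3 settings, while Notch2, Notch3, Jag1 and Hes1 overlap in tumors.

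Notch4, the receptor known from endothelium and from the Int3 locus, was at 557, 465 and 571 CPM in D2.1 cultures and at 25.4, 23.8 and 12.5 CPM in D2A1 cultures. In BALB/c tumors it was at 418, 500, 745 and 557 CPM in D2.1 and at 45.6, 39.0, 29.7 and 35.2 CPM in D2A1. In SCID-beige tumors it was at 723, 663, 503, 749 and 615 CPM in D2.1 and at 27.3, 28.2, 39.0, 51.6 and 42.4 CPM in D2A1. Every D2.1 library lay above every D2A1 library by a wide margin in all settings. The log2 difference was 4.71 ± 0.287 (SE) in culture, 3.90 ± 0.223 in BALB/c and 4.11 ± 0.210 in SCID-beige, with edgeR adjusted p-values of 4.65e-06, 1.34e-06 and 2.23e-08. D2.1 exceeded D2A1 26.3-fold in culture, 14.9-fold in BALB/c and 17.3-fold in SCID-beige, and the call held with each library left out. Of the 12 endothelial markers, 6 had at most 3 reads in each D2.1 culture, while Flt1 was at 135 to 167 CPM there, and their sum of 140 to 171 CPM in D2.1 cultures was above that of 26.3 to 40.1 CPM in D2A1 cultures. Their part in the Notch4 level was not tested. The difference between culture and SCID-beige tumors in this line difference was -0.59 ± 0.336 on the log2 scale and was not called (edgeR adjusted p = 0.299).

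Notch1, the receptor with broad roles in progenitor cells and T cells, was at 111, 123 and 187 CPM in D2.1 cultures against 5.53, 3.30 and 3.25 CPM in D2A1 cultures. BALB/c tumors held 121, 209, 71.9 and 48.9 CPM in D2.1 and 29.6, 33.5, 12.4 and 18.9 CPM in D2A1. In SCID-beige tumors it was at 74.7, 99.7, 170, 68.9 and 147 CPM in D2.1 and at 11.5, 11.3, 22.0, 25.2 and 35.6 CPM in D2A1. The lines did not overlap in any setting, although tumors of 1 group differed by up to several fold. The log2 difference was 5.15 ± 0.295 in culture (edgeR adjusted p = 3.47e-06), 2.26 ± 0.458 in BALB/c (0.00380) and 2.42 ± 0.353 in SCID-beige (0.000167). It was smaller in SCID-beige tumors than in culture (line-by-setting term -2.73 ± 0.537, edgeR adjusted p = 0.00185). Notch1 was thus 35.5-fold higher in D2.1 in culture and 4.78-fold and 5.34-fold higher in tumors.

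Notch2 was the most even receptor. It was at 131, 166 and 194 CPM in D2.1 cultures and at 103, 104 and 137 CPM in D2A1 cultures, which overlap, with a log2 difference of 0.54 ± 0.168 (edgeR adjusted p = 0.0279). This call was lost without D2A1 culture replicate 1 (log2 0.47, adjusted p = 0.105), D2A1 culture replicate 2 (0.48, adjusted p = 0.0975), D2.1 culture replicate 2 (0.54, adjusted p = 0.0792) and D2.1 culture replicate 3 (0.42, adjusted p = 0.0678). In tumors Notch2 ranged from 126 to 363 CPM in D2.1 and from 110 to 289 CPM in D2A1, and the log2 differences of 0.22 ± 0.379 in BALB/c and 0.12 ± 0.279 in SCID-beige were not called (edgeR adjusted p = 0.703 and 0.777).

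Notch3, known from mural cells of vessels, was at 9.95, 11.2 and 34.8 CPM in D2.1 cultures and at 0.365, 0.300 and 1.39 CPM in D2A1 cultures. In BALB/c tumors the lines overlapped, with 33.8, 38.1, 25.7 and 23.8 CPM in D2.1 and 38.3, 32.3, 18.4 and 15.7 CPM in D2A1. In SCID-beige tumors they overlapped too, with 18.9, 27.6, 68.6, 52.8 and 34.1 CPM in D2.1 and 31.6, 36.8, 34.0, 39.7 and 52.1 CPM in D2A1. The culture difference of 4.77 ± 0.684 on the log2 scale (edgeR adjusted p = 0.000614) stood beside 0.22 ± 0.299 and 0.07 ± 0.300 in tumors, which were not called (adjusted p = 0.614 and 0.889). The line-by-setting term was -4.70 ± 0.720 (edgeR adjusted p = 0.000183). D2A1 cultures held 6, 5 and 24 reads of Notch3, and the sizes of these differences rested on single libraries. Without D2A1 culture replicate 3 the culture difference was 5.79 and the term -5.72, and without D2.1 culture replicate 3 they were 3.97 and -3.89. The sum of 10 mural markers was 272 to 351 CPM in D2.1 cultures, 67.4 to 110 in D2A1 cultures and 485 to 980 over all tumors. Of the 10, 6 had at most 3 reads in every D2.1 culture, and 6 in every D2A1 culture. In SCID-beige tumors 5 of 9 tested were lower in D2.1, 0 higher and 4 not called (median log2 difference -1.35). In BALB/c tumors 2 of 10 were lower, 1 higher and 7 not called. Their part in the tumor levels of Notch3 was not tested.

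Of the ligands, Jag1 followed the pattern of Notch3. It was at 64.1, 71.3 and 74.4 CPM in D2.1 cultures and at 17.6, 14.4 and 21.8 CPM in D2A1 cultures, without overlap (log2 difference 1.99 ± 0.165, edgeR adjusted p = 2.58e-05). In tumors it ranged from 47.2 to 143 CPM in D2.1 and from 38.2 to 145 CPM in D2A1, and the differences of 0.36 ± 0.414 in BALB/c and -0.01 ± 0.281 in SCID-beige were not called (edgeR adjusted p = 0.547 and 0.979). The line-by-setting term was -2.00 ± 0.415 (adjusted p = 0.00276).

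Jag2 was the only member that was lower in D2.1 in all 3 settings. It was at 0.900, 1.39 and 0.963 CPM in D2.1 cultures and at 2.55, 4.14 and 1.86 CPM in D2A1 cultures. In BALB/c tumors it was at 9.81, 8.48, 7.18 and 7.35 CPM in D2.1 and at 16.9, 11.6, 21.1 and 15.3 CPM in D2A1, and in SCID-beige tumors at 8.27, 7.76, 6.15, 4.35 and 5.97 CPM against 17.3, 19.6, 18.1, 18.1 and 17.7 CPM. The lines did not overlap in any of these settings. The log2 difference was -1.35 ± 0.393, -0.98 ± 0.238 and -1.48 ± 0.206 (edgeR adjusted p = 0.0218, 0.00988 and 0.000107). The culture call rested on 16 to 69 reads per library and was lost without D2A1 culture replicate 2 (log2 -0.98, adjusted p = 0.105) or D2.1 culture replicate 1 (-1.24, adjusted p = 0.0778).

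Dll1, a Delta-like ligand, had the lowest mean level of the ligands in all 4 tumor groups, by CPM per kb with the cell-table lengths. With the deposited lengths Dll4 was lower than Dll1 in D2.1 tumors of each host, where libraries of these ligands overlapped by CPM per kb. In D2A1 tumors Dll1 did not exceed 3.25 CPM. D2.1 cultures held 2.31, 2.41 and 1.47 CPM and D2A1 cultures 0.0608, 0.540 and 1.04 CPM, the first of these from 1 read. BALB/c tumors held 6.01, 5.55, 2.41 and 3.68 CPM in D2.1 and 2.64, 1.83, 1.85 and 1.87 CPM in D2A1, which overlap. The log2 differences of 1.93 ± 0.624 and 1.11 ± 0.370 were called (edgeR adjusted p = 0.0337 and 0.0406), and the same size of 1.11 ± 0.480 in SCID-beige was not (0.0941). The culture call was lost without D2A1 culture replicate 1 (log2 1.41, adjusted p = 0.0534) or 2 (1.92, adjusted p = 0.0855) and without D2.1 culture replicate 1 (1.84, adjusted p = 0.0925) or 2 (1.81, adjusted p = 0.108), and without D2A1 culture replicate 3 the difference was 2.76. The BALB/c call was lost without any library except D2.1 replicate 3, with log2 differences of 0.93 to 1.32 and adjusted p-values of 0.0205 to 0.109 over the 8 fits. At 1 to 166 reads per library Dll1 was near the limit of what these depths resolve.

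Dll4, a ligand known from the tips of growing vessels, was the member whose line difference turned. D2.1 cultures held 4.95, 4.03 and 4.70 CPM and D2A1 cultures 0.608, 0.659 and 0.116 CPM, from 2 to 11 reads in D2A1. BALB/c tumors held 6.01, 7.52, 4.99 and 5.39 CPM in D2.1 and 17.0, 20.2, 15.6 and 19.8 CPM in D2A1. SCID-beige tumors held 5.96, 2.68, 7.86, 5.93 and 1.99 CPM in D2.1 and 24.1, 19.2, 20.9, 21.7 and 21.4 CPM in D2A1. D2.1 was above D2A1 in every culture and below it in every tumor. The log2 difference was 3.32 ± 0.477 in culture (edgeR adjusted p = 0.000616), -1.60 ± 0.218 in BALB/c (0.000352) and -2.13 ± 0.329 in SCID-beige (0.000255), and the line-by-setting term was -5.44 ± 0.626 (9.57e-06). The 12 endothelial markers moved in the same direction in tumors. Their sum was 184 to 271 CPM in D2.1 and 397 to 466 CPM in D2A1 tumors of BALB/c mice, and 163 to 214.02 against 385 to 488 CPM in SCID-beige mice. Of the 12, 9 were lower in D2.1 and 3 not called in BALB/c (median log2 difference -1.25), and 10 lower and 2 not called in SCID-beige (median -1.74). In cultures Pecam1, Cdh5, Tek, Tie1 and Emcn had 0 to 5 reads per library, while Flt1 was at 135 to 167 CPM in D2.1 and 21.9 to 37.4 CPM in D2A1, which makes up most of the sum there. The part of endothelial RNA in the Dll4 level was not tested, and in whole tumors fewer cells of a type and less RNA per cell cannot be told apart.

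**Figure D3:**
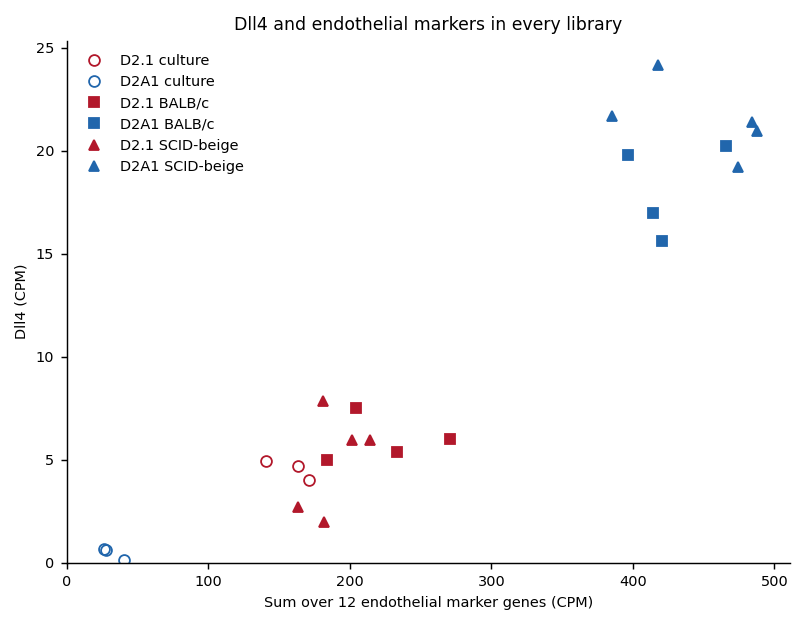
Each point is 1 library, with the sum of 12 endothelial marker genes (CPM) on the horizontal axis and Dll4 (CPM) on the vertical axis. D2.1 is red and D2A1 blue, with open circles for cultures, squares for BALB/c tumors and triangles for SCID-beige tumors. All 9 D2A1 tumors lie at 15.6 CPM of Dll4 or more and at 385 CPM of markers or more, and all 9 D2.1 tumors at 7.86 and 271 CPM or less.

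The targets Hes1 and Hey1, both transcriptional repressors of the basic helix-loop-helix class, differed from each other. Hey1 was at 82.0, 80.8 and 137 CPM in D2.1 cultures and at 16.8, 17.4 and 8.87 CPM in D2A1 cultures. Tumors of BALB/c mice held 53.3, 101, 115 and 64.6 CPM in D2.1 and 5.57, 6.47, 5.61 and 6.09 CPM in D2A1. In SCID-beige tumors it was at 107, 99.5, 36.7, 129 and 102 CPM in D2.1 and at 8.43, 5.22, 8.13, 9.93 and 8.58 CPM in D2A1. The lines were separate in every setting, even for the low D2.1 SCID-beige replicate 3. The log2 difference was 2.82 ± 0.311 in culture, 3.82 ± 0.269 in BALB/c and 3.55 ± 0.304 in SCID-beige (edgeR adjusted p = 0.000139, 5.30e-06 and 1.53e-06), and the line-by-setting term of 0.74 ± 0.464 was not called (0.356).

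Hes1 was at 113, 89.7 and 87.9 CPM in D2.1 cultures and at 30.5, 31.1 and 33.0 CPM in D2A1 cultures. Its levels in BALB/c tumors were 57.2, 51.3, 61.5 and 52.0 CPM in D2.1 and 57.2, 59.3, 71.5 and 68.2 CPM in D2A1, and in SCID-beige tumors it ranged from 67.7 to 86.6 CPM and from 64.5 to 82.2 CPM. The lines were apart in culture and overlapped in both hosts. The log2 difference was 1.65 ± 0.141 in culture (edgeR adjusted p = 2.89e-05), -0.20 ± 0.147 in BALB/c (0.332) and 0.12 ± 0.137 in SCID-beige (0.551). The line-by-setting term was -1.52 ± 0.197 (edgeR adjusted p = 3.74e-05).

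**Figure D4:**
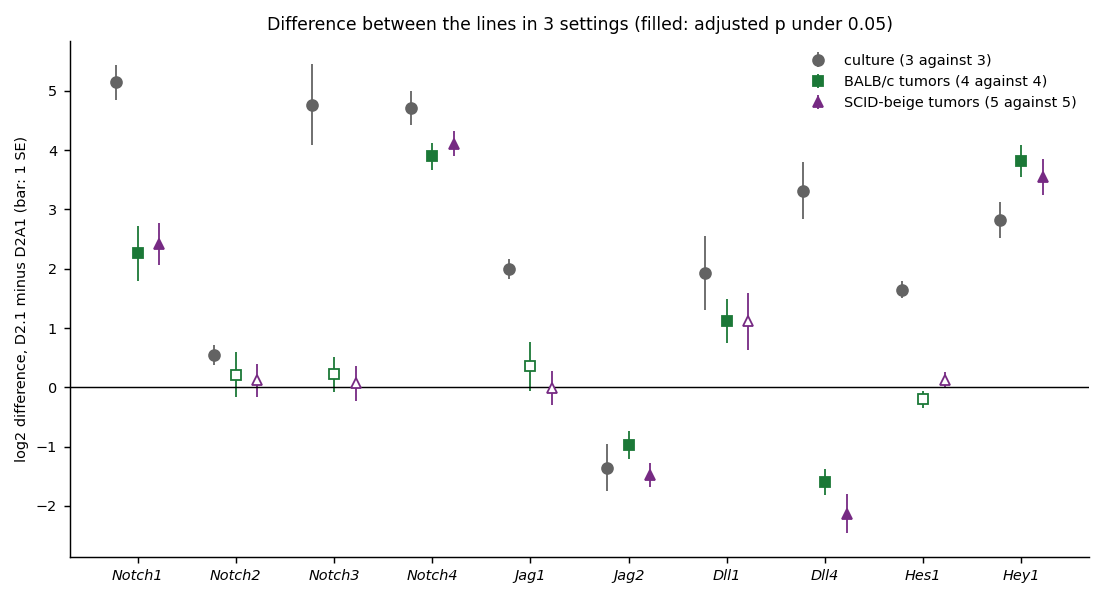
For each member, the log2 difference D2.1 minus D2A1 is shown with 1 SE in culture (circles), BALB/c tumors (squares) and SCID-beige tumors (triangles), and filled symbols mark an adjusted p under 0.05. Notch4 and Hey1 lie above 2.8 in every setting, Dll4 is at 3.32 in culture and at -1.60 and -2.13 in tumors, and Notch3, Jag1 and Hes1 lie between -0.20 and 0.36 in tumors.

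Over all members, the line-by-setting term was called for Notch1, Notch3, Jag1, Dll4 and Hes1, each lower in tumors than in culture, and for 0 in the other direction (background 12.8% of 15077 genes, 8.18% in this direction and 4.62% in the other). The remaining 5 members were not called, with terms from -0.82 ± 0.861 for Dll1 to 0.74 ± 0.464 for Hey1.

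The comparison of SCID-beige tumors with culture gives each line's side of these terms. Cultures and tumors come from separate tables that imply different gene lengths. Table and setting therefore cannot be told apart in the differences within either line. In D2.1 only Jag2 was called of the 10 members, at 5.79-fold higher in tumors (log2 2.53 ± 0.367, edgeR adjusted p = 0.000204), where 53.1% of 14111 genes were called (30.8% higher and 22.3% lower). Notch4, Notch1, Hey1 and Dll4 had log2 differences of 0.26 ± 0.164, -0.35 ± 0.308, -0.11 ± 0.329 and 0.07 ± 0.440 that were not called (edgeR adjusted p = 0.201, 0.364, 0.800 and 0.903). Notch3 was not called at 1.10 ± 0.491 (adjusted p = 0.0787), but was without D2.1 culture replicate 3 (1.88, adjusted p = 0.0104) or D2.1 SCID-beige replicate 1 (1.27, adjusted p = 0.0470). It was also called by DESeq2 (1.09, adjusted p = 0.0314). Library-wise GC correction added a call for Hes1 (-0.44 against -0.35 without it, edgeR adjusted p = 0.0404 and 0.0871). With GC correction and a block for replicate number together, Notch1 was called lower in tumors (-0.62, edgeR adjusted p = 0.0280) and Notch3 higher (0.75, adjusted p = 0.0103).

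In D2A1, 8 members were higher in SCID-beige tumors than in culture, Hey1 was lower and Notch2 was not called (background 58.1% of 13869 genes, 33.6% higher and 24.5% lower). Notch3 was 54.8-fold higher (log2 5.78 ± 0.441, edgeR adjusted p = 9.47e-07, and 6.78 without D2A1 culture replicate 3, which held 24 reads against 6 and 5) and Dll4 45.1-fold higher (5.49 ± 0.399, 6.80e-07). Jag2, Notch1 and Jag1 were higher by 2.64 ± 0.277, 2.36 ± 0.425 and 2.30 ± 0.326 on the log2 scale and Hes1 by 1.16 ± 0.147 (edgeR adjusted p = 1.17e-05, 0.000627, 0.000114 and 5.18e-05). Markers of host cells were high in the same libraries, with endothelial, mural and macrophage sums of 385 to 488, 565 to 904 and 705 to 1265 CPM in D2A1 SCID-beige tumors against 26.3 to 40.1, 67.4 to 110 and 1.32 to 2.84 CPM in culture. Their part in these members' levels was not tested.

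Smaller differences in D2A1 depended on single libraries. Hey1, at -0.86 ± 0.282 (edgeR adjusted p = 0.0209), was not called without D2A1 culture replicate 1 (-0.74, adjusted p = 0.0908) or 2 (-0.70, adjusted p = 0.102). Notch4, at 0.84 ± 0.291 (adjusted p = 0.0271), was not called without D2A1 SCID-beige replicate 4 (0.71, adjusted p = 0.0628) or D2A1 culture replicate 3 (0.57, adjusted p = 0.110), nor with GC correction (0.43, adjusted p = 0.267). Dll1, at 1.82 ± 0.691 (adjusted p = 0.0409), was not called without D2A1 SCID-beige replicate 4 (1.56, adjusted p = 0.0862) or 5 (1.67, adjusted p = 0.0643), without D2A1 culture replicate 1 (1.29, adjusted p = 0.117) or 2 (1.81, adjusted p = 0.106), or with GC correction (1.46, adjusted p = 0.102), and was at 2.64 without D2A1 culture replicate 3. Notch2, at 0.69 ± 0.284 (adjusted p = 0.0549), was called without D2A1 SCID-beige replicate 1 (0.81, adjusted p = 0.0260) or 2 (0.84, adjusted p = 0.00891), by DESeq2 (0.68, adjusted p = 0.0407) and with library totals in place of TMM (0.80, adjusted p = 0.0484).

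The host comparison asks whether these transcripts differ between BALB/c hosts and SCID-beige hosts, which lack functional T and B cells and have defective NK cells. Of the 10 members, 0 were called between BALB/c and SCID-beige hosts in D2.1 tumors (background 0.891% of 14929 genes, 0.871% higher and 0.0201% lower in BALB/c) and 0 in D2A1 tumors (background 1.17% of 14572 genes, 0.906% higher and 0.261% lower) by edgeR, and DESeq2 also called 0 in each. The log2 differences, BALB/c minus SCID-beige, ranged from -0.45 to 0.37 in D2.1 and from -0.57 to 0.16 in D2A1. At an unadjusted p under 0.05 edgeR counted 1 member in D2.1 and 0 in D2A1, and DESeq2 1 and 2. The 1 member in D2.1 by edgeR was Hes1. It was at 57.2, 51.3, 61.5 and 52.0 CPM in BALB/c tumors and at 67.7, 76.7, 85.1, 72.3 and 86.6 CPM in SCID-beige tumors, which do not overlap, with a log2 difference of -0.45 ± 0.142 and an edgeR adjusted p of 0.222 over all genes. In D2A1 tumors the Hes1 difference was -0.16 ± 0.138 (adjusted p = 0.843). The line-by-host terms of the members ranged from -0.32 to 0.53. Of the 10, edgeR called 0, with 0 at an unadjusted p under 0.05, and DESeq2 likewise called 0, with 0 unadjusted (background 0.0187% of 16036 genes by edgeR).

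Other genes of the pathway were counted from a list of 48, of which 41 passed the filter in culture and 43 in each tumor comparison. In culture 15 were higher in D2.1, 8 lower and 18 not called, with a median log2 difference of -0.03 (background 44.9% called). In BALB/c tumors 8 were higher, 3 lower and 32 not called (median 0.09, background 32.6%), and in SCID-beige tumors 4 were higher, 5 lower and 34 not called (median 0.03, background 32.1%). In these line comparisons no tested gene needed a bound for a group at the floor of 3 counts, so the medians hold fitted values alone. Between hosts 0 of 43 were called by edgeR in either line (background 0.891% and 1.17%).

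Among further targets, Hey2, a relative of Hey1, was at 10.9 ± 0.784 CPM in D2.1 and 0.714 ± 0.0428 CPM in D2A1 cultures (log2 3.95 ± 0.237, edgeR adjusted p = 4.05e-06). In tumors it was at 3.27 ± 0.211 against 1.09 ± 0.720 CPM in BALB/c and at 3.62 ± 1.30 against 1.21 ± 1.02 CPM in SCID-beige (edgeR adjusted p = 0.0280 and 0.0270), and these calls held in 5 of 8 and 5 of 10 fits with 1 library left out. Nrarp, a feedback inhibitor induced by Notch, was at 110 ± 27.8 CPM in D2.1 and 23.8 ± 5.31 CPM in D2A1 cultures (log2 2.23 ± 0.230, adjusted p = 9.46e-05). In D2.1 SCID-beige tumors Nrarp was at 13.1 ± 3.11 CPM, with a log2 difference from culture of -3.09 ± 0.224 (edgeR adjusted p = 1.37e-06). D2A1 SCID-beige tumors held 20.2 ± 1.41 CPM of Nrarp, so that D2.1 was lower there (log2 -0.62 ± 0.197, adjusted p = 0.0272, held in 7 of 10 fits with 1 library left out). BALB/c tumors held 10.6 ± 1.68 CPM in D2.1 and 14.0 ± 1.48 CPM in D2A1 (log2 -0.39 ± 0.208, not called, adjusted p = 0.181). The line-by-setting terms of Nrarp and Hey2 were -2.84 ± 0.303 and -2.38 ± 0.674 (edgeR adjusted p = 3.97e-06 and 0.0245), and that of Hey2 held in 11 of 16 fits with 1 library left out. Hes6, another relative, was lower in D2.1 in SCID-beige tumors (log2 -0.97 ± 0.217, adjusted p = 0.00363).

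Of the genes that act on ligands and receptors, Dlk2, a non-canonical ligand-like protein, was lower in D2.1 in each setting, with log2 differences of -3.59 ± 0.360, -3.60 ± 0.303 and -3.10 ± 0.837 (edgeR adjusted p = 7.90e-05, 1.39e-05 and 0.0119). D2.1 SCID-beige tumors held 0 to 71 reads of Dlk2, and the difference in that host ranged from -4.93 to -2.77 with each library left out. Neurl1a, a ubiquitin ligase that acts on ligands, was higher in D2.1 by 1.71 ± 0.439, 2.03 ± 0.395 and 2.45 ± 0.375 (edgeR adjusted p = 0.0124, 0.00308 and 0.000239). The culture call of Neurl1a, with 6 to 10 reads in D2A1, held in 5 of 6 fits with 1 library left out. Lfng, a glycosyltransferase that modifies receptors, and Rbpj, the DNA-binding partner of the receptors' intracellular domain, were lower in D2.1 in culture (-2.25 ± 0.216 and -1.31 ± 0.194, edgeR adjusted p = 6.14e-05 and 0.000731). Their line-by-setting terms were 2.13 ± 0.346 and 1.24 ± 0.260 (adjusted p = 0.000323 and 0.00318), the opposite direction to those of the 5 members. In all, 5 of 43 pathway genes had a higher and 5 a lower term (background 4.62% and 8.18%). Rfng was among the higher (0.82 ± 0.214, adjusted p = 0.0155), and Heyl, with 0 reads in each D2A1 culture, among the lower (edgeR adjusted p = 0.00244).

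Smaller differences were called for Aph1b, a subunit of γ-secretase, in BALB/c tumors (1.11 ± 0.316, edgeR adjusted p = 0.0213, held in 6 of 8 fits with 1 library left out) and for Rfng, another glycosyltransferase, in SCID-beige tumors (0.82 ± 0.156, adjusted p = 0.00119). Eogt, a further glycosyltransferase, was lower in D2.1 in BALB/c tumors (-0.78 ± 0.192, adjusted p = 0.0107). Fbxw7, which targets the intracellular domain for degradation, was lower by edgeR in BALB/c (-0.54 ± 0.184, adjusted p = 0.0457, held in 1 of 8 such fits) and in SCID-beige tumors (-0.82 ± 0.153, adjusted p = 0.00108, held in 10 of 10).

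Between SCID-beige tumors and culture, 17 of the 43 pathway genes were higher, 9 lower and 17 not called in D2.1 (median log2 difference 0.29), and 18 higher, 7 lower and 18 not called in D2A1 (median 0.21), beside medians of 0.09 and 0.10 over all genes and backgrounds of 53.1% and 58.1% called. Mfng, a glycosyltransferase, had 0 to 3 reads in D2.1 cultures and 95 to 190 reads in D2.1 SCID-beige tumors (edgeR adjusted p = 1.30e-05). It had 0 reads in each D2A1 culture and was at least 62.0-fold higher in D2A1 tumors against a floor of 3 counts per library. Heyl had 0 reads in each D2A1 culture and was at least 25.9-fold higher in D2A1 tumors against the same floor, with 2 to 19 reads in D2.1 cultures. Aph1c and Neurl1a were higher in D2.1 tumors by 2.74 ± 0.402 and 3.43 ± 0.509 on the log2 scale and Adam10 and Hey2 had differences of -1.45 ± 0.311 and -1.62 ± 0.324 (edgeR adjusted p = 0.000223, 0.000238, 0.00250 and 0.00166). In D2A1 tumors Neurl1a was higher by 2.67 ± 0.436, and Dlk2, Itch and Mib1 had log2 differences of -2.67 ± 0.363, -1.15 ± 0.290 and -1.08 ± 0.304 (edgeR adjusted p = 0.000322, 8.21e-05, 0.00555 and 0.00982).

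Within groups of tumors, Notch1, Notch2 and Jag1 varied together from library to library. With group means taken off log2 CPM over 18 tumors, Pearson's r was 0.96 between Notch1 and Notch2, 0.90 between Notch2 and Jag1 and 0.64 between Notch4 and Hey1, as a description of points that share a library. The same libraries differ in how their counts depend on GC content and on gene length. The slope of log2 counts on GC ranged from -0.218 to 0.337 per 10 percentage points in D2.1 BALB/c tumors and from -0.243 to 0.273 in D2A1 SCID-beige tumors. Against this slope, Notch2, Notch1 and Jag1 had r of -0.94, -0.91 and -0.85 and Notch4, Hes1, Dll4 and Hey1 had r of -0.06, 0.08, -0.11 and 0.13 over the 18 tumors. Against the slope of log2 counts on gene length, Notch2, Notch1 and Jag1 had r of 0.97, 0.94 and 0.91 and Notch4 had r of 0.19. With GC-dependent offsets per library, the line difference of Notch1 was 2.16 in BALB/c and 2.46 in SCID-beige (edgeR adjusted p = 0.00956 and 0.000620), and that of Notch4 was 3.62 and 4.12 (2.35e-06 and 9.82e-08).

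**Figure D5:**
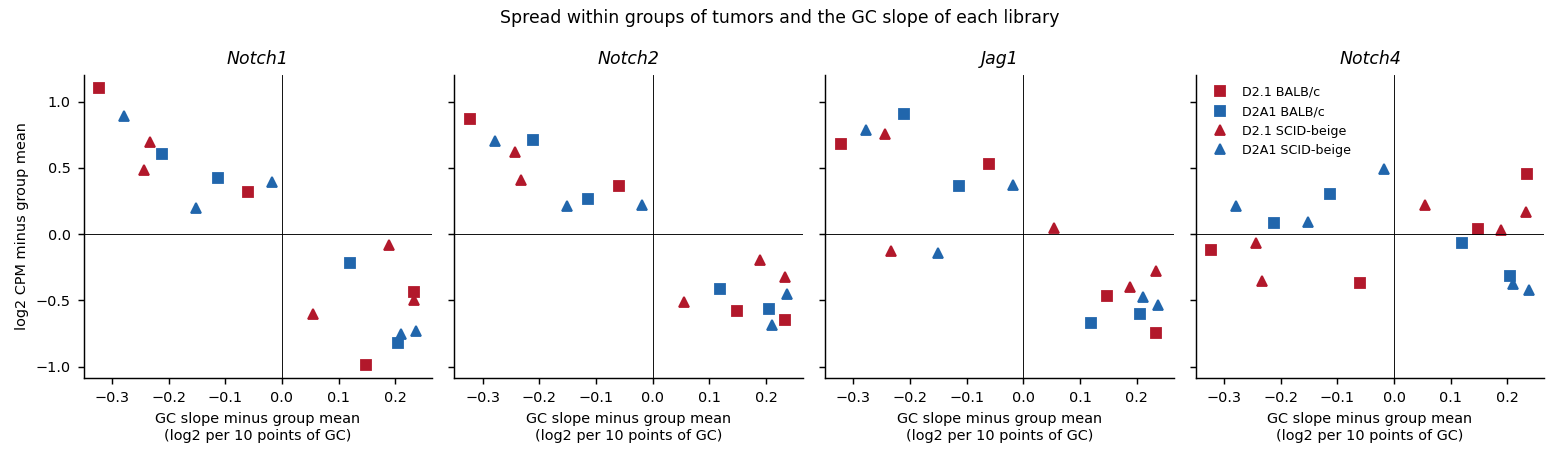
For 18 tumors, the log2 CPM of 4 members minus the mean of the group (vertical) is plotted against the slope of log2 counts on GC content of the library minus the mean of the group (horizontal). D2.1 is red and D2A1 blue, with squares for BALB/c and triangles for SCID-beige tumors. Notch1, Notch2 and Jag1 fall with the slope (r of -0.91, -0.94 and -0.85), and Notch4 does not (r of -0.06).

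The genes most alike to each member over the 18 tumors, by Pearson's r with group means taken off among 13771 protein-coding genes, were Ep300 (0.98) and Nr3c1 (0.98) for Notch1, Fbxo11 (0.99) and Trappc8 (0.98) for Notch2, Xpo5 (0.91) and Bub1 (0.89) for Notch3, and Rin1 (0.83) and Arv1 (0.81) for Notch4. For the ligands they were Elmod2 (0.95) and Ankrd26 (0.94) for Jag1, Abcb4 (0.82) and Slc38a7 (0.79) for Jag2, Slc7a11 (0.85) and Hsd17b7 (0.83) for Dll1, and Nars (0.86) and Igfbp3 (0.84) for Dll4. For the targets they were Rbks (0.73) and Vamp4 (0.72) for Hes1 and Scara3 (0.85) and Pou6f1 (0.83) for Hey1. These values describe points that share library, depth and base composition.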

How the data were processed

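RNA-seq of 6 cultures and 18 whole tumors was sequenced by Novogene and processed with its standard pipeline or GENAVi. STAR and the mm10 build are named in the submitters' processing notes, while the counting program, annotation and strand setting are not given in the sources used here. The count tables hold the authors' raw read counts for each gene, as deposited. The deposited FPKM values are the authors' counts divided by gene length and library total, which was checked on 100% of genes with a count. The gene lengths differ between the tables of cells and tumors (for Notch1 9488 and 1519 bases, equal within 1% for 24.8% of genes), so levels are given here as CPM, or per kilobase with the lengths of the cell table. FPKM was used only as an alternative. Identifiers not in GENCODE M21 (GRCm38) held 0.0969% of counts in cells and 0.00594% in tumors.

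Groups were taken from the sample labels. Tests used the package edgeR 4.0.16 under R 4.3.3 (TMM, default filter, robust quasi-likelihood test, Benjamini-Hochberg adjusted p under 0.05 over all genes tested), with only the groups compared in each fit. The interaction terms used all groups involved. CPM across cultures and tumors used TMM factors over all 24 libraries and the shared identifiers. The SE is the log2 difference divided by the square root of F. In simulated counts, 200 genes were given a log2 change of 2. The edgeR fits recovered 94.5% in culture (12320 genes), 81.5% in BALB/c tumors (14628 genes) and 87% in SCID-beige tumors (14122 genes). They recovered 71.0% for the line-by-setting and 69.0% for the line-by-host term. Over the 9 comparisons 2.07% (line by setting) to 7.8% (culture) of edgeR's calls were false. For DESeq2 the false share was 10.1% to 19.9%. Far more genes were called in the data between lines and between settings (5602 of 12489 in culture). The simulated shares therefore need not hold there. Alternatives were DESeq2 1.42.0, its size factors in edgeR, no filter, a replicate block, offsets from a spline on GC content (5 degrees of freedom) per library, library totals, FPKM divided by TMM factors and each library left out. Counts of all 38 pairs of same-group libraries differed beyond sampling noise. Replicates are separate tumors or cultures by label, but nothing says that cultures were separate experiments, so those p-values measure the spread between samples that may be technical.

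Named were all 10 members, of the other pathway genes up to 3 per direction and comparison by fold change among those called, and for likeness the 2 protein-coding genes with the highest correlation. Members and gene lists were chosen with earlier results of these data known. No columns of samples outside the labels were present. Replicate numbers were taken to pair libraries where every same-number correlation of deviations from group means was over 0.1, which held for the cultures (0.184 to 0.491). The main culture tests did not use this pairing, which entered only through the replicate block among the alternatives. Protein sequences were not analysed here.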

Additional observations from a re-analysis of the deposited data

Results flagged for a closer look

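Of 40 groups of 4 or 5 tumors checked over the 10 members, 3 held a library far from the others of its group, and chance gives about 1 in 20. Jag1 was at 143 CPM in D2.1 SCID-beige replicate 5 (gap 0.712 of the range). Dll1 was at 2.64 CPM in D2A1 BALB/c replicate 1 (gap 0.958 of the range) and at 9.45 CPM in D2.1 SCID-beige replicate 3 (gap 0.751 of the range). The difference between the lines was not the same in SCID-beige tumors and in culture for 5 members, tested as a line-by-setting term with edgeR. The terms were -2.73 for Notch1, -4.70 for Notch3, -2.00 for Jag1, -5.44 for Dll4 and -1.52 for Hes1 on the log2 scale. What these differences come from was not tested.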

How the results depend on the processing

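Of the 36 called log2 differences of members over the comparisons, 526 of 565 values under the alternatives stayed called in the same direction, 39 lost the call and 0 changed direction. Members called ranged, with each library left out, from 7 to 10 in culture, 5 to 6 in BALB/c, 5 to 5 in SCID-beige, 1 to 2 for D2.1 tumors against culture, 7 to 10 for D2A1 tumors against culture, 5 to 5 for the line-by-setting term and 0 to 0 in each host comparison and the line-by-host term. Genes called ranged likewise from 4375 to 5908, 4074 to 5046, 3969 to 4916, 5903 to 7659, 6745 to 8200 and 1418 to 2164, and from 26 to 314 for host in D2.1, 27 to 172 for host in D2A1 and 0 to 12 for line by host, whose counts thus depend on single libraries. For host in D2.1 (133 genes), DESeq2 called 588, no filter 275, the replicate block 14, the block with GC offsets 7, and leaving out D2.1 BALB/c tumors 1 and 4 together, chosen after seeing the data, 11. For host in D2A1 (170) DESeq2 called 517 and the block 0, also with GC offsets 0 (893 and 928 genes at an unadjusted p under 0.05). For line by host (3) DESeq2's size factors gave 6, DESeq2 105, no filter 7 and GC offsets 5. For D2.1 tumors against culture DESeq2 and the block each called 2 members, GC offsets 2 and the block with GC offsets 3. The cause was not tested.

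Members' values that changed sign were not called. Between the lines and between settings, with the replicate block they were 0.00746 for Jag1 and -0.0690 for Notch3 in SCID-beige and -0.0260 for Jag1 in D2.1 tumors against culture. With the block and GC offsets they were 0.00617 for Jag1 and -0.0112 for Notch3 in SCID-beige, -0.119 for Notch4, -0.0431 for Jag1, -0.107 for Dll4 and -0.0013 for Notch2 in D2.1 tumors against culture, -0.0520 for Notch2 in D2A1 tumors against culture and 0.0134 for Jag2 in the line-by-setting term. With GC offsets alone they were -0.0926 for Dll4 in D2.1 tumors against culture and 0.0376 for Jag2 in the line-by-setting term, and with library totals 0.0137 for Hey1 in D2.1 tumors against culture. With each library left out, Notch2 ranged from -0.14 to 0.49 in BALB/c and from -0.0634 to 0.32 in SCID-beige, Jag1 from -0.26 to 0.22 and Notch3 from -0.21 to 0.22 in SCID-beige, Dll4 from -0.17 to 0.27 and Hey1 from -0.25 to 0.16 in D2.1 tumors against culture, and Jag2 from -0.49 to 0.13 in the line-by-setting term. In the host comparisons, where no member was called, signs changed for 1 member with the block in each line, for 2 with GC offsets and for 2 with both in each line and in the line-by-host term, for 3 in D2.1 without BALB/c tumors 1 and 4, and for 1 in D2A1 with DESeq2 and with its size factors. With each library left out, 15 values changed sign in D2.1, 15 in D2A1 and 22 in the line-by-host term.

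Same-number correlations were 0.0899 to 0.464 in BALB/c and -0.142 to 0.263 in SCID-beige tumors, so numbers were not taken to pair them, and -0.183 to 0.159 and -0.374 to -0.159 between hosts. The replicate block raised genes called in culture from 5602 to 7539 and changed no member call there. In BALB/c it raised genes called to 7116 and added Jag1 (0.38, adjusted p = 0.0201). In D2A1 tumors against culture Notch4 and Dll1 were not called with the block (0.62 and 1.43, adjusted p = 0.0808 and 0.0849) nor with the block and GC offsets (0.06 and 1.005, adjusted p = 0.886 and 0.2205). In D2.1 tumors against culture the block added Notch3 (1.03, adjusted p = 0.00345). Library totals moved the median of all genes in culture from -0.02 to -0.15 and in tumors against culture from 0.09 to 0.24 (D2.1) and from 0.10 to 0.20 (D2A1); calls in culture then split into 2433 higher and 3271 lower against 3023 and 2579. Notch2 (0.42, adjusted p = 0.114) and Dll1 (1.78, adjusted p = 0.0513) were then not called. GC offsets also ended these culture calls (0.43, adjusted p = 0.0799, and 1.76, adjusted p = 0.0517) and that of Dll1 in BALB/c (1.04, adjusted p = 0.0669). FPKM divided by TMM factors moved 0 of 60 group means by more than 1 SD. With the deposited lengths of each table, chosen after seeing the data, 26 of 60 ranks of members by level moved, 0 of them in culture. Depth limits Dll1 and, in culture, Jag2, Dll4 and Notch3.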
